A study of Mus musculus with 4 samples.

Results

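The genes described here are the cell cycle and mitosis genes of the mouse melanoma line B16F10, followed through a map of phosphorylated RNA polymerase II (Pol II) in control cells and in cells lacking Carm1. They were chosen by symbol alone, by name patterns for cyclins, their kinases and inhibitors, E2F and retinoblastoma proteins, mitotic kinases, the anaphase promoting complex, the spindle checkpoint, kinetochores, condensin, cohesin and the centrosome. The patterns matched 71 genes, each present at both ends of the gene, of 3112 genes with values at the transcription start site (TSS) and 3030 with values at the transcription end site (TES).

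The assay was mNET-seq, in which chromatin is cut with micrococcal nuclease and the short RNA held by immunoprecipitated Pol II is sequenced. The groups were parental B16F10 cells, labelled WT, and B16F10 cells labelled Carm1 KO, which lack an arginine methyltransferase that acts as a transcriptional coactivator. Both were grown in culture, and the labels name no drug treatment. The labels do not say how the knockout was made or whether the cells are 1 clone. Each group has 1 library made with an antibody to Pol II phosphorylated at serine 2 of its carboxy-terminal repeats (Ser2P) and 1 made with antibody 8WG16 to those repeats. In each condition 3 sets of cells were pooled after the nuclease step, so there is no spread between replicates, no test and no p-value. The tables give for each gene 1 Ser2P ratio for control and 1 for Carm1 KO cells. The divisor is not given in the sources used here, so Ser2P and its divisor cannot be told apart as the source of a change, and depth is unknown. Of 7 melanocyte markers checked, 5 (Tyr, Tyrp1, Pmel, Mlana and Sox10) have values in the tables used here, as do 0 of 3 fibroblast and 0 of 2 leukocyte markers. A ratio is not an expression level, so this shows only which genes have a value. Carm1 itself was not analysed here.

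A dividing cell runs through waves of transcription. E2F factors, held back by retinoblastoma proteins until cyclin-dependent kinases phosphorylate them, drive genes for DNA replication. Later waves, through promoters with CCAAT boxes and the cell cycle homology region (CHR), drive genes for mitosis, whose products build kinetochores, condense chromosomes and are destroyed by the anaphase promoting complex as the cell divides. Ser2P is placed mostly as Pol II elongates and is usually densest towards the ends of genes.

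Changes between the conditions spread more at the start than at the end, in these genes and in all genes. As log2 of Carm1 KO over control, the distance between quartiles was 1.52 at starts and 0.66 at ends for members. For all genes it was 1.43 and 0.83. The bases before the RefSeq start are shown for 6 members. Cdc20, Ccnb1 and Top2a had lower start ratios in Carm1 KO cells, and Cdk1, Mki67 and Plk4 had higher ones. Each stretch is 120 bases, 5′ to 3′ on the gene's own strand, taken from RefSeq on GRCm38.p6 and placed upstream of any annotated exon. Capitals mark motifs on either strand. The CHR was searched as TTTGAA and also as the variant TTCGAA. The box bound by NF-Y was searched as CCAAT. The E2F motif was searched as TTTCCCGC, TTTGGCGC, TTTCGCGC or TTTGCCGC.
Cdc20 (chr4:118437353-118437472, minus strand): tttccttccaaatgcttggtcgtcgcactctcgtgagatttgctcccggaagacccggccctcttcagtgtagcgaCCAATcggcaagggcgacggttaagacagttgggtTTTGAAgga
Ccnb1 (chr13:100786571-100786690, minus strand): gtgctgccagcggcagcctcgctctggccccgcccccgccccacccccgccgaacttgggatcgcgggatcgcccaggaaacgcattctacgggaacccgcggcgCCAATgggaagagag
Top2a (chr11:99024190-99024309, minus strand): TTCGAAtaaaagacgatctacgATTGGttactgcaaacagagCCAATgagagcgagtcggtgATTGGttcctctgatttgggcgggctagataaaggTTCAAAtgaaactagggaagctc
Cdk1 (chr10:69352939-69353058, minus strand): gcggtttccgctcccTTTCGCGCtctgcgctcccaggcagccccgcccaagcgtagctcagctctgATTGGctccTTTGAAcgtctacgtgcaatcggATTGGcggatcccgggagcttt
Mki67 (chr7:135716380-135716499, minus strand): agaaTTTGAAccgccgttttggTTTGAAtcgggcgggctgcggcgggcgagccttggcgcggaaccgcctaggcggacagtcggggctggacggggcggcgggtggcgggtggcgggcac
Plk4 (chr3:40799831-40799950, plus strand): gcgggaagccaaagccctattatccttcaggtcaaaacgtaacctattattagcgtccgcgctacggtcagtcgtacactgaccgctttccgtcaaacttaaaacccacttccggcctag

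Positions below count the bases from a motif's nearest base to the start. In the printed stretches Cdc20 has a CHR at 13 bases and a CCAAT box at 49 bases. Top2a has CHR motifs at 115 and 18 bases and CCAAT boxes at 94, 74 and 54 bases. Cdk1 has a CHR at 66 bases, CCAAT boxes at 76 and 44 bases and an E2F motif at 124 bases. Mki67 has CHR motifs at 111 and 93 bases, Ccnb1 a CCAAT box at 95 bases, and Plk4 none of these letters in its stretch. A match describes the sequence and does not show that a factor was bound. CHR and CCAAT letters thus stand before starts with lower and with higher ratios.

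At the start, most cell cycle genes had a higher Ser2P ratio in Carm1 KO than in control cells, and the same held at the end. The median member had a TSS ratio of 0.0780 in control cells and 0.142 in the knockout, and a TES ratio of 1.80 and 3.19. Of 68 members above 0 in both conditions at the TSS, 56 were above control, and 46 passed 1.5-fold and are called higher, against 71.2% of all genes. Another 4 passed 1.5-fold downwards and are called lower, against 5.60% of all genes. At the TES 61 of 71 members were above control, 50 were called higher (all genes 66.7%) and 2 lower (all genes 7.13%). These shares lie near the background, so the overall direction is not a result about cell cycle genes.

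The median log2 change of the members was 1.06 for starts (quartiles 0.34 and 1.85) and 0.82 for ends (quartiles 0.49 and 1.15). All genes had medians of 1.17 and 0.85. Because the scaling between the libraries is not given, a change is also stated relative to those medians. On that scale the members' medians were -0.11 and -0.03, just below 0. At the TSS 19 members were then called higher and 22 lower (all genes 28.6% and 28.8%). At the TES 6 were higher and 10 lower (all genes 11.6% and 22.0%). The values below are log2 of Carm1 KO over control as deposited, and "relative" marks those with the median of all genes subtracted.

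**Figure D1:**
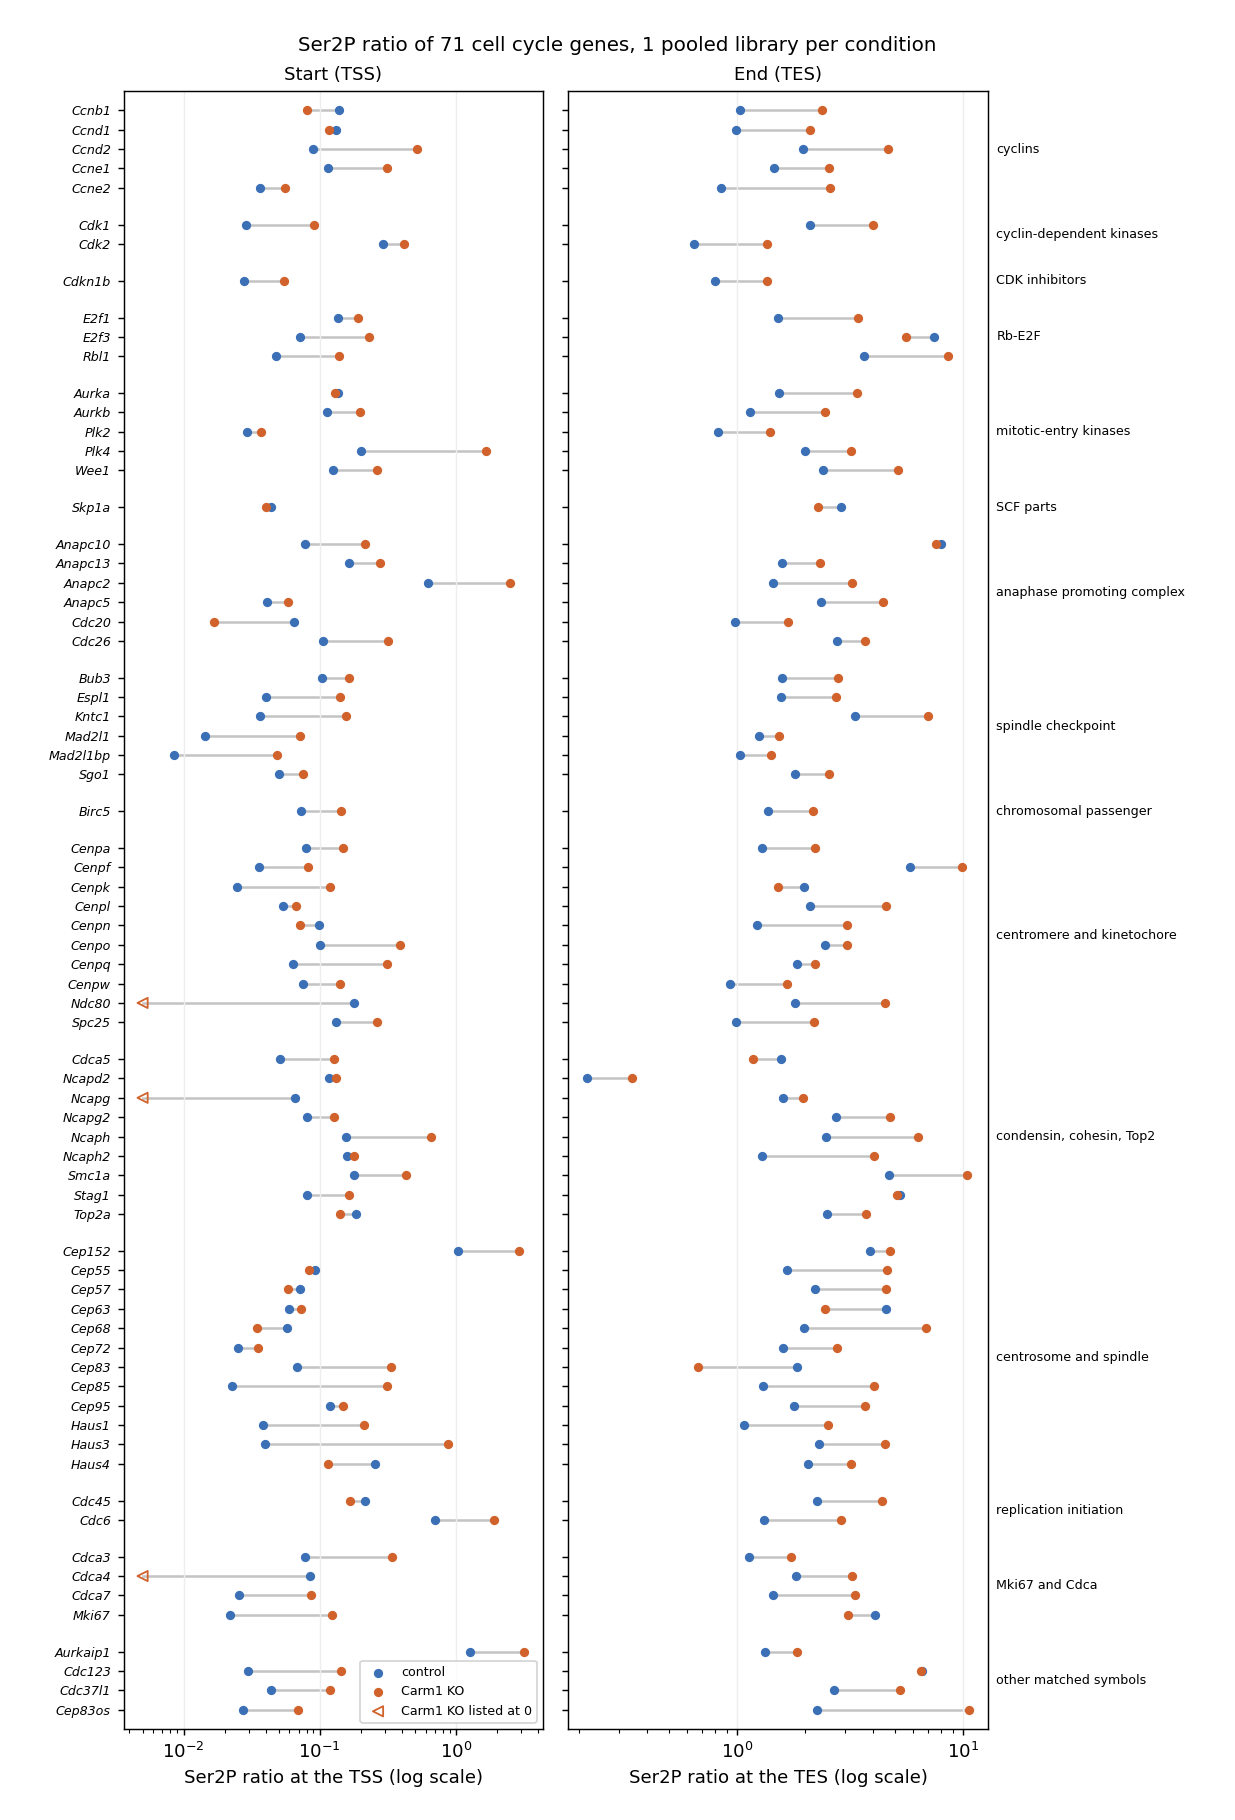
Ser2P ratio (log axis) of each of the 71 members at the TSS (left) and the TES (right), blue for control and orange for Carm1 KO, 1 pooled library each, with members grouped by role. Most orange points lie to the right of the blue ones at both ends, and open triangles at the left edge mark Ndc80, Ncapg and Cdca4, which are listed at 0 at the TSS in Carm1 KO cells.

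Cyclins, the subunits that switch their kinases on, differed at their starts and moved alike at their ends. Ccnb1, the cyclin of mitotic entry (chr13:100778650-100786570), had a TSS ratio of 0.138 in control cells and 0.0808 in the knockout, a change of -0.77 that is called lower. Ccnd1, a partner of the early kinases, had nearly level values of 0.132 and 0.117 (-0.17). Its paralogue Ccnd2 was called higher, at 0.0889 and 0.519 (2.55). Ccne1 and Ccne2, the partners of Cdk2 at the onset of replication, were called higher too, Ccne1 at 0.114 and 0.310 (1.44) and Ccne2 at 0.0365 and 0.0559 (0.62). Relative to all genes Ccnb1 stood at -1.94, Ccnd1 at -1.34 and Ccne2 at -0.55, and only Ccnd2 and Ccne1 of these 5 lay above the median gene. Start changes therefore differed within this family. The Ccne1 start values were shared by 10 genes in control and 9 in Carm1 KO cells, and the Ccne2 Carm1 KO value by 15. Of these 5 only Ccnd2 had start values that no other gene held in both conditions.

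At the TES 5 of 5 cyclins were called higher (all genes 66.7%), and relative to all genes 1 of 5. The ratio of Ccne2 was 0.853 in control cells and 2.58 in the knockout (1.60), the widest change of the family, and that of Ccnd2 was 1.97 and 4.64 (1.24). Ccnb1 had 1.03 and 2.37 (1.20), Ccnd1 0.985 and 2.10 (1.09) and Ccne1 1.46 and 2.56 (0.81). The control end value of Ccnb1 was held by 28 genes of the table. The cyclins' median change was 1.20 at the TES (relative 0.35) and 0.62 at the TSS (relative -0.55).

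Both cyclin-dependent kinases with values were called higher at the end. Cdk1, the mitotic kinase, had a TSS ratio of 0.0288 in control cells and 0.0915 in the knockout (1.67), and a TES ratio of 2.11 and 3.99 (0.92). Cdk2 began from a high control TSS ratio, 0.290, and reached 0.415, a change of 0.52 that did not pass 1.5-fold, while its TES ratio of 0.647 and 1.36 (1.07) did. The start of Cdk2 lies 836 bases from that of Pmel, a melanosome gene on the opposite strand that overlaps it. Whether the authors' counting used strand is not given in the sources used here, so reads of overlapping genes may not be told apart. Cdkn1b, the inhibitor of these kinases, was called higher at both ends, from 0.0277 to 0.0542 (0.97) and from 0.796 to 1.36 (0.77). Both changes were below the median gene.

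Among the retinoblastoma and E2F genes all 3 starts were above control, and the ends diverged. E2f3, an activator (chr13:29906575-29986063), had 0.0722 in control cells and 0.230 in the knockout at the start (1.67), and 7.40 and 5.57 at the end (-0.41, relative -1.26). Rbl1, a retinoblastoma relative that restrains E2F, was called higher at both ends, with 0.0478 and 0.139 at the start (1.54) and 3.63 and 8.59 at the end (1.24). E2f1 had 0.137 and 0.192 at the TSS (0.48), short of 1.5-fold, and 1.52 and 3.45 at the TES (1.18). E2f3 was the only 1 of the 3 with a lower end ratio in Carm1 KO cells.

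Kinases that govern entry into mitosis and the centrosome cycle were called higher at the end in 5 of 5 cases (all genes 66.7%), and relative to all genes in 0. Their starts ranged widely. Plk4, the kinase that starts centriole duplication (chr3:40800019-40816883), had a TSS ratio of 0.201 in control cells and 1.66 in the knockout (3.05, relative 1.88). No other gene held either value. Its TES ratio was 1.997 and 3.19 (0.68). Wee1, which holds Cdk1 inactive, had 0.125 and 0.264 at the start (1.07) and 2.39 and 5.18 at the end (1.11), and Aurkb, the kinase of the chromosomal passenger complex, 0.113 and 0.196 (0.79) and 1.14 and 2.45 (1.11). Aurka, a spindle pole kinase, had a level start, 0.136 and 0.129 (-0.07), beside an end at 1.53 and 3.39 (1.15). Plk2 changed by 0.34 at the TSS and 0.76 at the TES. Birc5, the survivin subunit of the passenger complex, had 0.0728 and 0.143 at the start (0.97) and 1.37 and 2.16 at the end (0.66).

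Among genes of the anaphase promoting complex, the ubiquitin ligase that ends mitosis, only the activator had a lower start ratio in Carm1 KO cells. Cdc20, the activator (chr4:118432901-118437352), had the largest decrease of any member at the TSS, from 0.0647 in control to 0.0168 in Carm1 KO cells (-1.95, relative -3.12). The control value was shared by 3 genes of the table. At the TES Cdc20 had 0.979 and 1.69 (0.79), close to the median gene. The cullin-like subunit Anapc2 had a high start ratio in both conditions, 0.628 and 2.49 (1.99), and an end ratio of 1.45 and 3.23 (1.16). Its start lies 40 bases from that of Ssna1 on the opposite strand. Anapc10, Cdc26 and Anapc13 also have an opposite-strand start nearby, at 80 (Abce1), 155 (Prpf4) and 238 bases (Cep63). Anapc10 had 0.0780 and 0.215 at the TSS (1.46) and nearly level end values of 7.97 and 7.61 (-0.07), the highest control end ratio of all members. Cdc26 and Anapc13 changed by 1.59 and 0.75 at the TSS and were called higher, and Anapc5, with 0.50, was not. Relative to all genes Anapc13 stood at -0.42 and Anapc5 at -0.66. At the TES the changes were 0.91 for Anapc5, 0.56 for Anapc13 and 0.41 for Cdc26. Skp1a, the adaptor of the SCF ligases of earlier phases, had slightly lower ratios in Carm1 KO cells at both ends (-0.14 and -0.35) and was the only member below control at both.

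Spindle checkpoint and chromatid separation genes were called higher at the start in 6 of 6 cases (all genes 71.2%), and relative to all genes in 4. Mad2l1, the checkpoint effector, had 0.0143 in control cells and 0.0722 in the knockout (2.34), and Mad2l1bp, which takes the effector out of its active complex, 0.00853 and 0.0487 (2.51). Mad2l1bp had the lowest control start ratio of all members. Kntc1, a kinetochore subunit that recruits checkpoint proteins, had 0.0365 and 0.155 (2.09), and Espl1, the separase that cuts cohesin, changed by 1.82. The cohesin protector Sgo1 had 0.0498 and 0.0749 (0.59). It passed 1.5-fold, as did Bub3 (0.67), and both lay below the median gene. The median of the 6 was 1.95 at the TSS (relative 0.78). At the TES it was 0.66 (relative -0.19), with 3 of 6 called higher (all genes 66.7%) and the largest change at Kntc1, from 3.34 to 7.01 (1.07). Mad2l1 had 1.25 and 1.53 there (0.29) and Mad2l1bp 1.03 and 1.41 (0.45), both short of 1.5-fold. The relative median of this group was thus above 0 at starts and below 0 at ends. Control start ratios of this group were small, with a median of 0.0383 against 0.0780 for all members. With 0.01 added to each start value the group median was 1.63 (all genes 1.01), with Mad2l1bp at 1.66 and Mad2l1 at 1.76. Leaving out low ratios kept 3 of these genes, with a median of 1.82 (all genes 1.25).

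**Figure D2:**
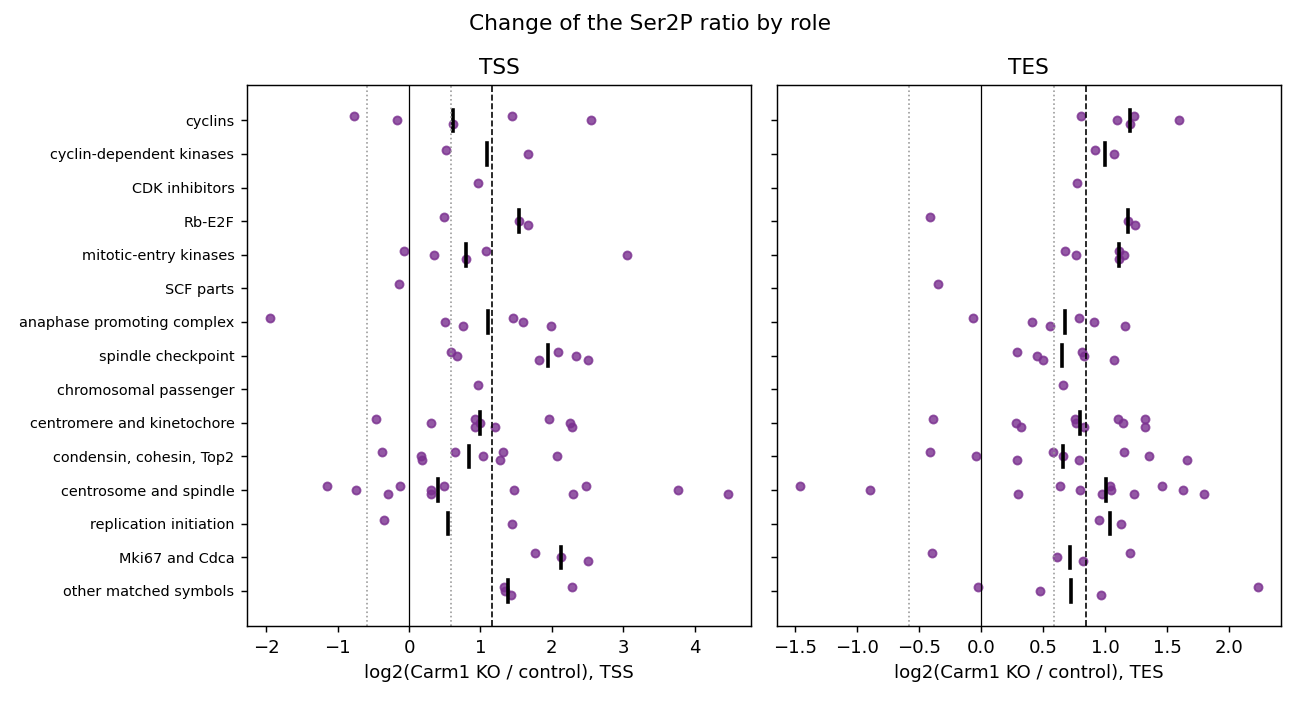
Change of the Ser2P ratio of each member (points) by role at the TSS and the TES, as log2 of Carm1 KO over control; thick bars are medians of groups with at least 2 members, dashed lines the medians of all genes (1.17 and 0.85) and dotted lines 1.5-fold. Spindle checkpoint genes lie to the right at the TSS, centrosome genes span from -1.16 to 4.47 there, and cyclins sit close together at the TES.

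Centromere and kinetochore genes lay near the background at both ends. Of 9 compared at the TSS, 7 were called higher (all genes 71.2%) and 0 lower, and at the TES 7 of 10 were called higher (all genes 66.7%) and 0 lower. Only 4 at each end lay above the median gene. Cenpq, Cenpk and Cenpo, subunits of the constitutive centromere network, led at the TSS. Cenpq had 0.0636 and 0.310 (2.28), Cenpk 0.0248 and 0.119 (2.26), and Cenpo changed by 1.95. None of these 3 passed 1.5-fold at the TES, where Cenpq had 1.83 and 2.22 (0.28), Cenpk 1.99 and 1.52 (-0.39) and Cenpo a change of 0.33. Cenpn, a subunit that reads the centromeric nucleosome, showed the reverse, from 0.0989 to 0.0719 at the TSS (-0.46) and from 1.23 to 3.07 at the TES (1.32). Cenpl resembled it, with 0.31 at the TSS and 1.11 at the TES. Cenpa, the centromeric histone H3 variant, had 0.0787 and 0.149 at the start (0.92) and 1.30 and 2.20 at the end (0.77). Cenpw changed by 0.92 and 0.83, and the large kinetochore protein gene Cenpf by 1.21 and 0.76. Cenpf climbed steeply from start to end, with a TES ratio of 5.84 in control cells and 9.86 in the knockout over TSS ratios of 0.0356 and 0.0822.

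Both genes of the microtubule-binding Ndc80 complex with values differed at the start. Ndc80 had a TSS ratio of 0.178 in control cells and is listed at 0 in Carm1 KO cells, so no fold was computed, and its TES ratio was 1.81 and 4.53 (1.32). Its partner Spc25 had 0.132 and 0.262 at the start (0.99) and 0.988 and 2.19 at the end (1.15). A value of 0 at the TSS in Carm1 KO cells is listed for 194 genes, 3 of them members. The other members listed at 0 were Ncapg, with 0.0657 in control, and Cdca4, with 0.0849.

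Genes for condensing and holding chromosomes were called higher at 5 of 8 starts, or 62.5% (all genes 71.2%), and at 5 of 9 ends, or 55.6% (all genes 66.7%). The condensin I gene Ncaph led at the TSS, from 0.157 to 0.660 (2.07), with 2.47 and 6.30 at the TES (1.35). Its partners stood apart from it. Ncapd2 had nearly level start values, 0.117 and 0.131 (0.17), and by far the lowest end ratios of all members, 0.218 and 0.344 (0.66). Ncapg, at 0 in Carm1 KO cells at the start, had 1.60 and 1.96 at the end (0.29). In condensin II, Ncaph2 had 0.158 and 0.179 at the start (0.18) and 1.28 and 4.06 at the end (1.66), while Ncapg2 changed by 0.64 and 0.79. The cohesin subunit gene Smc1a was called higher at both ends, from 0.178 to 0.431 (1.28) and from 4.68 to 10.4 (1.15). Its partner Stag1, the longest member at 361578 bp, changed by 1.04 at the start, and its end values were 5.25 and 5.10 (-0.04). Cdca5, the sororin that protects cohesin, had 0.0514 and 0.128 at the start (1.31) and 1.57 and 1.18 at the end (-0.41). Top2a, the topoisomerase that untangles sister chromatids, had 0.185 and 0.142 at the TSS (-0.38, relative -1.55). Its TES ratios were 2.49 and 3.72, a change of 0.58 that falls just short of 1.5-fold.

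Centrosome and spindle genes had the widest range of changes of the role groups at both ends, and at the TSS also the widest spread between quartiles. At the TSS 5 of 12 were called higher (all genes 71.2%) and 2 lower (all genes 5.60%), with a median of 0.40 against 1.17 for all genes. At the TES 9 were higher (all genes 66.7%) and 2 lower (all genes 7.13%), with a median of 1.01 against 0.85. The low TSS median depended on which genes were kept. Leaving out low ratios gave 1.88 over 8 genes (all genes 1.25). Values that no other gene holds gave 1.47 over 3 genes (all genes 1.22). Leaving out genes with an opposite-strand start within 1 kb gave 0.98 over 6 genes (all genes 1.22). Haus3, a subunit of augmin, which branches spindle microtubules, had the largest TSS increase of all members, from 0.0394 to 0.873 (4.47, relative 3.30). Haus3 and the DNA polymerase gene Poln overlap on the same strand with starts 79 bases apart. Poln had almost the same TSS values, 0.0378 and 0.870, so the increase cannot be assigned to Haus3 alone. At the TES Haus3 had 2.30 and 4.53 (0.98) and Poln 4.63 and 5.37. Cep85, a centrosomal regulator (chr4:134129858-134187112), followed at the TSS with 0.0227 and 0.310 (3.77), and the Carm1 KO value was shared by 9 genes. Its TES ratio was 1.30 and 4.03 (1.63). Haus1 changed by 2.48 and 1.24. It overlaps Atp5a1 on the opposite strand, with starts 157 bases apart. Haus4, the third augmin gene listed, was called lower at the start, from 0.254 to 0.114 (-1.16), and higher at the end (0.64). The start values of the listed augmin genes thus differed in direction. Those of Haus3 and Haus1 may include reads of their neighbours, so whether the subunits themselves moved apart cannot be told.

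The CEP genes, named for their place at the centrosome, included several that differed between start and end. Cep68, of the linker between centrosomes, had 0.0576 and 0.0344 at the start (-0.74) and 1.98 and 6.88 at the end (1.79). Cep55, of the abscission site, had 0.0919 and 0.0839 at the start (-0.13) and 1.67 and 4.59 at the end (1.46), and Cep57 changed by -0.29 and 1.04. Cep152, which recruits Plk4 to the mother centriole, had high start ratios of 1.04 and 2.89 (1.47) and an end change of 0.30. Cep63, the partner of Cep152, was called lower at the TES, from 4.57 to 2.46 (-0.89), beside start values of 0.0592 and 0.0729 (0.30). The start of Cep63 lies 238 bases from that of Anapc13, and both genes overlap there on opposite strands. Cep72 and Cep95 changed by 0.49 and 0.30 at the TSS and by 0.79 and 1.05 at the TES.

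Cep83, of the appendages that dock centrioles to the membrane (chr10:94688654-94790853), was the only member called higher at the TSS and lower at the TES. Its start ratio was 0.0685 in control cells and 0.336 in the knockout (2.29), and its end ratio was 1.85 and 0.671 (-1.46). The 4 values were shared with other genes, by 8, 22, 4 and 9 genes in that order with Cep83 counted. The antisense transcript Cep83os, matched by its symbol, starts 78 bases away on the opposite strand. It had the largest TES increase of all members, from 2.26 to 10.6 (2.23), with 0.0271 and 0.0688 at the TSS (1.34). At their ends the 2 neighbours thus changed in opposite directions.

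Of the 2 genes for starting replication, Cdc6, the licensing factor, was called higher at both ends, from 0.704 to 1.92 (1.45) and from 1.32 to 2.88 (1.13). Cdc45, of the replicative helicase, had 0.214 and 0.168 at the start (-0.35) and 2.25 and 4.37 at the end (0.95). Mki67, whose protein coats mitotic chromosomes, was called higher at the start, from 0.0219 to 0.124 (2.50), and its end values were 4.09 and 3.10 (-0.40, relative -1.25). Cdca7 had 0.0255 and 0.0866 at the start (1.76) and 1.45 and 3.33 at the end (1.20), and Cdca3 changed by 2.12 and 0.61. Cdca4, listed at 0 at the start in Carm1 KO cells, had 1.83 and 3.24 at the TES (0.82).

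The patterns also matched 4 symbols whose products act elsewhere. Cdc123, of translation initiation factor assembly, had 0.0296 and 0.144 at the start (2.28) and 6.60 and 6.49 at the end (-0.02). Cdc37l1, a chaperone cofactor, changed by 1.43 and 0.97. Aurkaip1, of the mitochondrial ribosome, had the highest start ratios of all 71 genes, 1.26 and 3.17 (1.33), and 1.32 and 1.84 at the end (0.48). Cep83os is the fourth. They were set apart after the member list was seen. Without them 42 members were called higher and 4 lower at the TSS, and 48 higher and 2 lower at the TES.

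Both ends together gave 4 members called lower at the start and higher at the end, which were Cdc20, Ccnb1, Cep68 and Haus4, or 5.88% of 68 against 3.42% of all genes. Cep83 alone was called higher at the start and lower at the end (all genes 4.58%). Higher calls at both ends covered 29 members, or 42.6% (all genes 49.2%). Without regard to 1.5-fold, 11 members lay below control at the start and above it at the end, or 16.2% (all genes 11.6%). These 11 were Aurka, Ccnb1, Ccnd1, Cdc20, Cdc45, Cenpn, Cep55, Cep57, Cep68, Haus4 and Top2a. They were listed after their values were seen, and their share was not tested. Both ends share the same libraries, so no correlation between them is given.

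**Figure D3:**
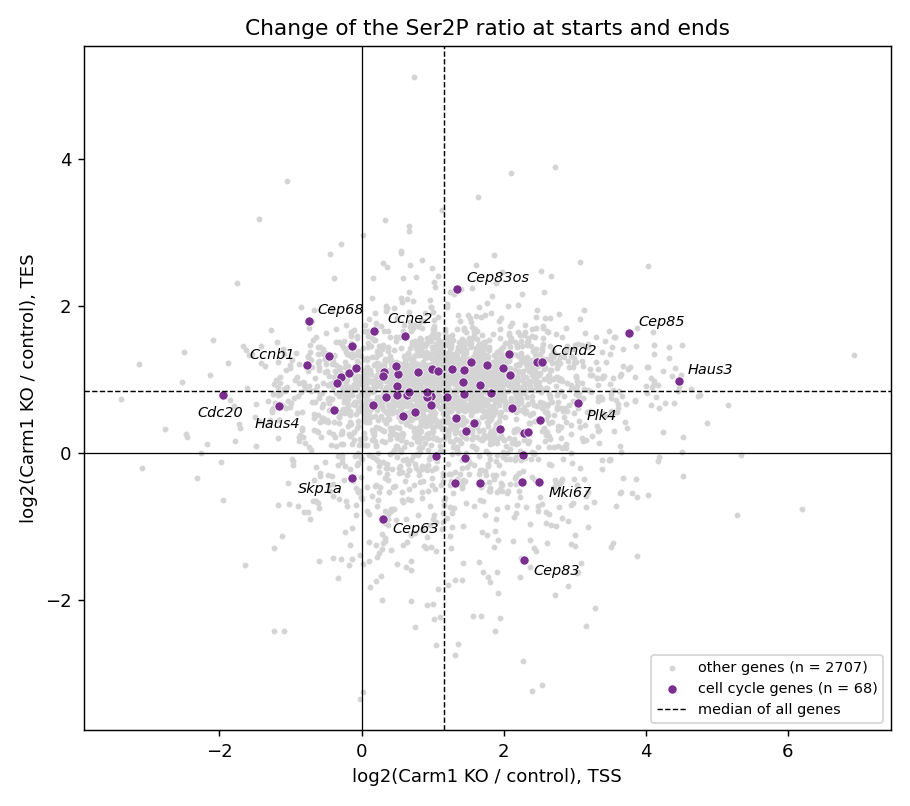
Change at the TSS (x axis) against change at the TES (y axis), as log2 of Carm1 KO over control, for the 68 members with values above 0 throughout (purple) and other genes (grey); dashed lines are the medians of all genes. Cdc20, Ccnb1, Cep68 and Haus4 lie at the upper left, and Cep83 at the lower right.

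The start-to-end climb of the ratio was present in every one of the 68 members in control cells (all genes 97.0%) and in 67 in Carm1 KO cells (all genes 93.8%). The exception was Aurkaip1, the shortest member at 1859 bp, whose end was 1.05 times its start in control cells and 0.581 times in the knockout. For the median member the end exceeded the start 26.4 times in control cells and 24.2 times in the knockout, against 19.5 and 15.7 for all genes. The climb was steeper in Carm1 KO cells in 27 members, or 39.7%, near the 36.6% of all genes. This measure is the quotient of both ends, so a scale factor common to both ends of a library cancels in it.

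The climb steepened most at the 4 members called lower at the start. The start ratio is the divisor of the quotient, and these 4 were called higher at the end. Their steeper climb therefore follows from those calls and is not a separate result. In the same way, the climb flattens wherever the start rose more than the end. For Cdc20 the quotient was 15.1 in control cells and 101 in the knockout, for Cep68 34.4 and 199.9, for Ccnb1 7.47 and 29.3 and for Haus4 8.08 and 28.0. It flattened most at Cep83, from 27.0 to 2.0, at Haus3, from 58.3 to 5.18, and at Mki67, from 187 to 25. For Plk4 it was 9.95 and 1.92. Of the cyclins, Ccnb1, Ccnd1 and Ccne2 steepened, and Ccnd2 and Ccne1 flattened. In the spindle checkpoint group 5 of 6 flattened, with a median quotient of 63.3 in control cells and 25.1 in the knockout. In the mitotic kinase group 4 of 5 steepened, with medians of 11.3 and 19.6.

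**Figure D4:**
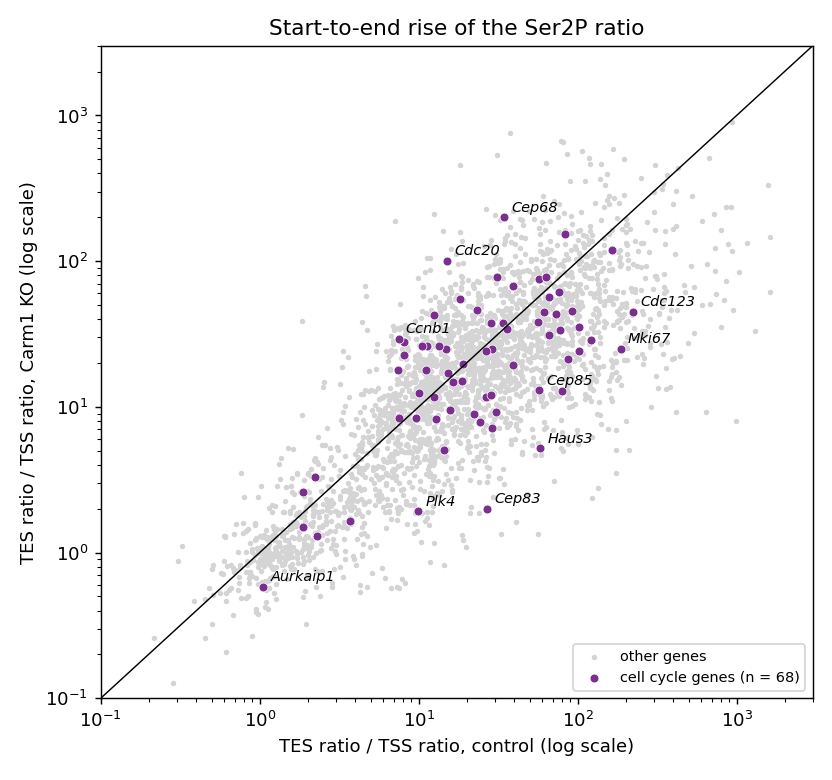
TES ratio divided by TSS ratio in control (x axis) and in Carm1 KO cells (y axis), log axes, for the 68 members (purple) and other genes (grey), with the line of equality. Cdc20 and Cep68 lie above the line, Cep83, Haus3, Plk4 and Mki67 below it.

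Longer members had higher end ratios, while the change at the end followed length only weakly. Members span 1859 to 361578 bp, with a median of 17552 bp. The TES ratio itself was higher in longer members, with Spearman's rho of 0.75 in control cells and 0.66 in the knockout over 71 genes of the same libraries. For all genes with a length these were 0.79 and 0.58. Between length and the TES change rho was -0.079 for members and -0.34 for all genes. Among the 10 members over 50 kb the median TES change was 0.14, with 4 called higher (all genes of that class 26.5%) and 1 lower (26.1%), and for all genes of that class it was 0.04. At the TSS the same 10 were called higher in 10 of 10 cases, with a median of 1.61, against 70.3% and 1.18 for all genes over 50 kb. The 10 are Stag1, Cep83, E2f3, Kntc1, Anapc10, Cep152, Rbl1, Ncapg2, Cep85 and Cdc123. Of them Cep85, Rbl1, Kntc1 and Ncapg2 were called higher at the TES, while Stag1, Anapc10, Cdc123, E2f3 and Cep83 had lower end ratios in Carm1 KO cells. In the 16 members of 25 to 50 kb the TES median was 0.86 (all genes 0.75), with 11 called higher (all genes 60.1%). In the 28 of 10 to 25 kb it was 1.11 (all genes 1.02) and in the 17 shorter ones 0.77 (all genes 0.93). The medians thus did not fall steadily with length, in members or in all genes. All 4 members called lower at the TSS were shorter than 25 kb. Over all genes the share called lower at the TSS was 5.16% up to 10 kb, 4.44% to 25 kb, 6.47% to 50 kb and 6.81% above.

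**Figure D5:**
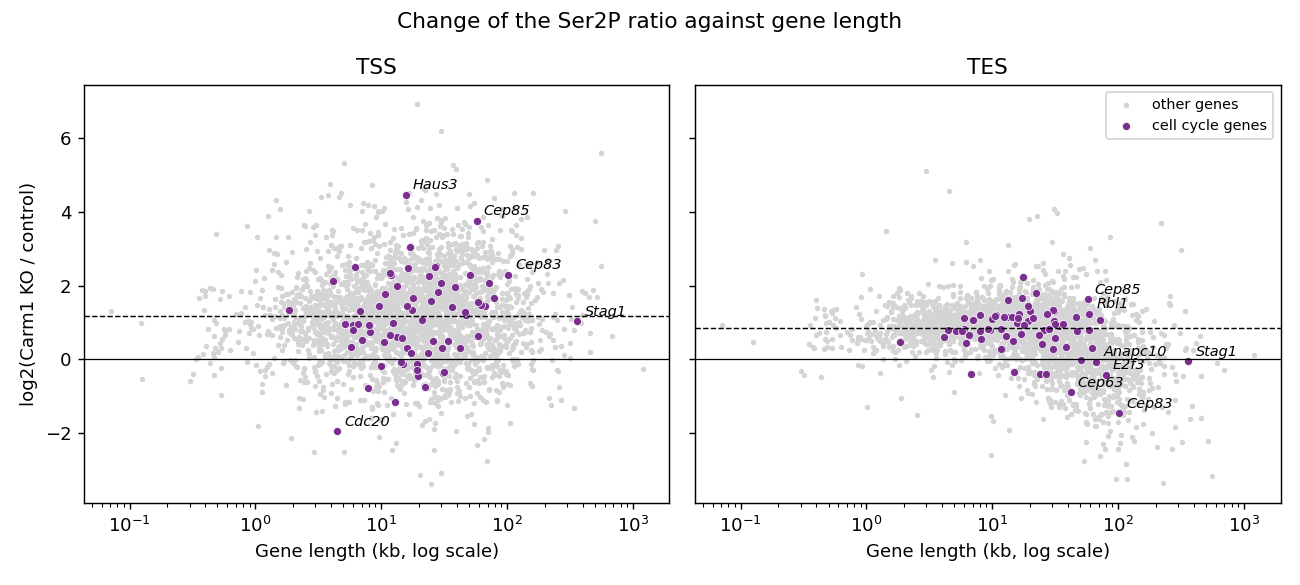
Change of the Ser2P ratio (log2 of Carm1 KO over control) against annotated gene length (log axis) at the TSS and the TES, members in purple, other genes in grey, dashed lines at the medians of all genes. At the TES long genes spread downwards, with Cep83 the lowest member at -1.46.

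Values shared between genes bear on single start values. At the TSS 39 of 68 Carm1 KO values of members, or 57.4%, equalled that of another gene to 10 decimals (all genes 55.2%). Of control values 30 of 71, or 42.3%, did so (all genes 39.6%). Among the 21 members whose start values in both conditions were held by no other gene, 17 were called higher, 0 lower and 2 lay below control. Among the other 47, 29 were higher and 4 lower. Each of the 4 start decreases, at Cdc20, Ccnb1, Cep68 and Haus4, therefore includes a value that other genes hold too. Over all genes, shared values or not, 71.2% were called higher and 5.60% lower. These shares were not split by sharing, so the members' counts do not tie start decreases to shared values. Starts that face another gene were common too, since 29 of 71 members have a start on the opposite strand within 1 kb. Of all genes with a start ratio and a matched symbol, 1171 had such a start and 1895 did not, a similar share. The median TSS change was 1.30 in members with a facing start and 1.02 in the other members. Of these members 60.7% and 72.5% were called higher (all genes 68.3% and 73.2%). For all genes the medians ran the other way, 1.08 with a facing start and 1.22 without. The part of these neighbours in the values was not tested.

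Other genes of cell division, from a list of 118 symbols that the patterns do not match, had values in 55 cases and lay near the background. At the TSS 37 of 53, or 69.8%, were called higher (all genes 71.2%) and 2 lower (all genes 5.60%), with a median of 1.18. At the TES 37 of 55, or 67.3%, were higher (all genes 66.7%) and 5 lower (all genes 7.13%), with a median of 0.75. Mybl2, a factor of the later cell cycle waves, had the largest start change, 3.77, with 1.18 at the end. Tubgcp5, of the microtubule-nucleating gamma-tubulin ring, changed by 3.39 and Nsl1, of the kinetochore, by 2.91. Clasp1, a microtubule-stabilising protein gene, was called lower at both ends (-1.23 and -1.29). Knstrn, of the spindle, was lower at the start (-0.76) and higher at the end (1.30). Mastl, the kinase that shields Cdk1 substrates from their phosphatase, was called lower at the TES (-1.10), and so were Pmf1 (-0.72) and Ppp1cb (-0.71). Cul1 and Lin9 are listed at 0 at the TSS in Carm1 KO cells. The ends of Hmmr (1.83), Hjurp (1.69) and Kif18b (1.51) showed the widest increases.

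Promoter letters were counted over the 250 bases before RefSeq starts for the 63 members with an entry. Not matched were Aurkaip1, Aurkb, Ccnd1, Ccnd2, Ccne2, Haus1, Skp1a and Wee1. A CHR stood in 21 members, or 33.3%, against 19.6% of all 27025 genes with an entry and 14.3% of genes in the tables. CCAAT stood in 36, or 57.1%, against 37.5% and 42.1%, and an E2F motif in 11, or 17.5%, against 2.16% and 6.01%. Different motifs overlapped in 2 of the members' start windows. The shares describe the members' sequences, and their difference from other genes was not tested.

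Members with a CHR had a median TSS change of 0.67 over 19 genes, with 11 called higher, 1 lower and 2 more listed at 0. Members without it had 1.28 over 41 genes, with 29 higher, 3 lower and 1 more listed at 0. Among all genes of the tables the medians were 1.12 and 1.19. Of those with a CHR 219 of 326 were called higher and 17 lower, and of those without it 1439 of 1983 and 110. For CCAAT the members' medians were 0.95 with and 1.43 without it, and over all listed genes 1.12 and 1.23. The 4 start decreases, at Cdc20, Ccnb1, Cep68 and Haus4, were in genes with a CCAAT box. Of all listed genes, 58 of 976 with the box and 69 of 1333 without it were called lower, which are similar shares. At the TES the medians with and without a CHR were 0.82 and 0.78. The stretches printed above show the limit of this contrast. Cdc20 and Top2a on the low side carry CHR and CCAAT letters, and so does Cdk1 on the high side. Mki67, also on the high side, has CCAAT boxes at 184, 162 and 137 bases, outside its printed stretch. For the E2F motif the TSS medians were 1.04 over 11 genes with it and 1.21 over 49 without it.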

How the data were processed

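Values came from 2 tables deposited by the authors, for the TSS and the TES, with 1 column for control and 1 for Carm1 KO cells. The column names give cells and Ser2 but no sample, and were read as the control and Carm1 KO groups. The deposited values are called Ser2 fractions, per the file headers, but pass 1 and were treated as a linear ratio. Another deposited column, a signed score, equalled Carm1 KO minus control within 1e-09 and was not used further. The submitters' processing notes name cutadapt 1.18, TopHat2 2.1.1, mm10 and GRCm38. The sources used here do not give windows, divisor, scaling, strand setting or gene choice, and depth is unknown.

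Changes are log2(Carm1 KO / control) without a pseudocount, over genes above 0 in both columns, and a call is 1.5-fold. Medians of all 2859 TSS and 3016 TES genes were also subtracted. Symbols were matched without case to GENCODE M21 (GRCm38), uniquely for 3071 of 3117 genes and 71 of 71 members, for lengths and neighbours within 1 kb. Promoters are from RefSeq GRCm38.p6. Calculations used Python with pandas and numpy and were tested on simulated data. Any member could be named, with both values at each end for the core genes, genes at 0, the widest changes and the extremes of each role. Aurkaip1 and Cep83os were set apart from the kinase and centrosome groups after the member list was seen. The values of 1 gene of the other pathway list are not reported here. Members, lists and roles were chosen with earlier results of these data known.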

Additional observations from a re-analysis of the deposited data

How the results depend on the processing

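No paired analysis was possible because each group has 1 library. Many signs depend on scaling. Members above 0 numbered 56 of 68 at the TSS and 61 of 71 at the TES as deposited, and 33 at each end relative to the median gene. After subtracting the medians of all genes (1.17 and 0.85), the members' medians were -0.11 at the TSS and -0.029 at the TES, with 19 higher and 22 lower, and 6 higher and 10 lower. Role medians above 0 then numbered 4 of 12 and 6 of 12, and the other pathway genes had 13 higher and 16 lower, and 3 higher and 16 lower. Role medians that turned negative were, at the TSS, the anaphase promoting complex -0.063, kinetochore -0.17, condensin and cohesin -0.33, cyclin-dependent kinases -0.073, cyclins -0.55, mitotic kinases -0.37, centrosome -0.77 and replication -0.62. At the TES they were the anaphase promoting complex -0.18, kinetochore -0.052, condensin and cohesin -0.19, other matched symbols -0.13, Mki67 and Cdca -0.13 and spindle checkpoint -0.19. Calls that turned negative at the TSS were Anapc13 -0.42, Aurkb -0.37, Birc5 -0.20, Bub3 -0.49, Ccne2 -0.55, Cdkn1b -0.20, Cenpa -0.24, Cenpw -0.25, Ncapg2 -0.52, Sgo1 -0.58, Spc25 -0.17, Stag1 -0.13 and Wee1 -0.093. At the TES they were Birc5 -0.19, Bub3 -0.020, Ccne1 -0.040, Cdc20 -0.064, Cdca3 -0.24, Cdca4 -0.029, Cdkn1b -0.077, Cenpa -0.084, Cenpf -0.093, Cenpw -0.020, Cep72 -0.056, Espl1 -0.038, Haus4 -0.21, Ncapd2 -0.19, Ncapg2 -0.059, Plk2 -0.086 and Plk4 -0.17. The subtraction itself sets these signs.

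With values no other gene holds, 17 of 21 members were higher and 0 lower at the TSS, with a median of 1.33 (all genes 1.22). There 6 of 6 role medians were above 0. At the TES 30 of 42 members were higher and 0 lower. The other pathway genes had 17 higher and 0 lower at the TSS and 2 lower at the TES. At 2-fold, 2 members were lower at the TSS, and 28 were higher and 1 lower at the TES. The other pathway genes had 1 lower at the TSS and 17 higher and 2 lower at the TES. With pseudocounts of 0.01 and 0.1, 7 members and 4 other pathway genes were lower at the TSS, the members' median being 0.94. Without low ratios 2 members and 1 other pathway gene were lower at the TSS (median 1.32) and 1 member at the TES. Without genes over 50 kb the TSS median was 0.95, with 1 member lower at the TES and 1 and 3 other pathway genes lower at the TSS and TES. Leaving out facing starts was chosen after seeing the data. It left 29 of 40 members higher at the TSS and 32 of 42 higher and 0 lower at the TES, with 22 and 21 other pathway genes higher, and an anaphase promoting complex TSS median of -0.72 over 2 genes. These smaller counts partly follow from fewer genes compared. The members' median log2 quotient of TES over TSS was 4.72 for control and 4.60 for Carm1 KO cells. It was 3.82 and 3.11 with unshared values and 4.23 and 4.28 without low ratios. Without long genes it was 4.36 and 4.45. In control it was 4.53 with pseudocounts and 4.51 without facing starts. For the other shifts the cause was not tested.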
